A study of Homo sapiens with 12 samples.

Results

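ACHN, an established human kidney cancer cell line, was compared under the TEAD inhibitor SWTX-143 and under DMSO. The comparison took every library that the labels give as ACHN, 6 of the 12 in the series, and every gene with enough counts to be tested, 13483 of the 27064 symbols in the count table. The 3 control libraries came from cells in DMSO, the vehicle, and the 3 treated libraries from cells held overnight in 100 nM SWTX-143. Both groups share the line, the plating in 6-well plates and the poly(A) library preparation, and the submitters describe the line as lacking NF2 function. No allele, clone, passage or culture is given for a library in the sources used here, so the p-values below measure only how these samples vary, and that variation may be technical. The other 6 libraries, of the NF2-deficient mesothelioma line H226 under the same 2 treatments, serve below only to test where the response of ACHN differs.

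The Hippo pathway limits the activity of the transcriptional coactivators YAP and TAZ. Its kinases LATS1 and LATS2 phosphorylate both proteins and keep them out of the nucleus, and merlin, the product of NF2, helps to activate those kinases. In the nucleus YAP and TAZ act through the DNA-binding TEAD factors, which recognise the sequence GGAATG and its reverse complement CATTCC. SWTX-143 is described by the submitters as binding TEAD irreversibly. Known targets of YAP and TEAD include secreted matrix proteins, growth factors, and several brakes on the pathway itself.

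The YAP/TEAD target genes fell in the treated ACHN libraries, led by the secreted matrix protein gene CTGF. Levels here are CPM, counts scaled to library size by TMM, and a gene is called when edgeR's quasi-likelihood test gives an adjusted p under 0.05 over all tested genes. Values with ± in parentheses are log2 fold changes of treated over DMSO with the fit's SE, and a level given as a mean carries its SD, with 3 libraries per group. Of 22 listed targets, all of them tested, 16 were called lower and 1 higher, against 9.37% called lower and 8.43% called higher among all tested genes. The same 16 genes had all 3 treated libraries below all 3 DMSO libraries, and groups that do not overlap in either direction were seen in 31.9% of all tested genes. The median log2 fold change of the 22 genes was −0.53, beside 0.0013 over all tested genes.

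CTGF stood at 115, 117 and 114 CPM in the 3 DMSO libraries and at 23.4, 22.98 and 19.6 CPM in the treated ones. The treated libraries lie far below the control libraries, and the log2 fold change was −2.39 ± 0.06 (SE, n = 3 per group; adjusted p = 4.77e-35). ANKRD1, a nuclear ankyrin-repeat protein, was measured at 22.8, 21.01 and 19.4 CPM under DMSO and 8.94, 7.37 and 7.83 CPM under the inhibitor, a change of −1.38 ± 0.11 with no overlap between the groups. The kinase gene NUAK2 was at 65.8, 68.2 and 64.3 CPM against 48.5, 42.5 and 42.9 CPM, a smaller fall of −0.56 ± 0.06. EDN2, which encodes the vasoactive peptide endothelin-2 and belongs to the wider YAP-associated list, was at 63.9, 71.4 and 77.5 CPM against 16.4, 15.7 and 17.5 CPM (−2.10 ± 0.08, adjusted p = 9.76e-29).

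The promoters of these 4 genes are printed because each holds the TEAD letters within 250 bases before the start. They are RefSeq sequences on build GRCh38.p14, all on the minus strand and written 5′ to 3′, of the 250 bases before the start, with GGAATG or CATTCC in capitals. CTGF, listed as CCN2 in RefSeq (chr6:131951373-131951622), holds 3 matches, which begin 169, 104 and 95 bases before the start. ANKRD1 (chr10:90921088-90921337) holds 2, at 220 and 128 bases, NUAK2 (chr1:205321746-205321995) holds 2, at 197 and 18 bases, and EDN2 (chr1:41484684-41484933) holds 1, at 175 bases. No match overlaps another.
CTGF: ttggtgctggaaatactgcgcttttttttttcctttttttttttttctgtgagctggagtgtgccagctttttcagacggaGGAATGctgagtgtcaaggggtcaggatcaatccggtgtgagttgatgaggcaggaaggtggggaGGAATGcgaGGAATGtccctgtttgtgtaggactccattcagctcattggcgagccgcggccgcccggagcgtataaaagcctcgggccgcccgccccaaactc
ANKRD1: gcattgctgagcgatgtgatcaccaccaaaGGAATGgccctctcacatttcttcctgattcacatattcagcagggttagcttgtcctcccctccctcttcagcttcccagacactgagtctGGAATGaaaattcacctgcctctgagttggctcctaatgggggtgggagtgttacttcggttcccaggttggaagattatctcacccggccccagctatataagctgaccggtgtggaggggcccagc
NUAK2: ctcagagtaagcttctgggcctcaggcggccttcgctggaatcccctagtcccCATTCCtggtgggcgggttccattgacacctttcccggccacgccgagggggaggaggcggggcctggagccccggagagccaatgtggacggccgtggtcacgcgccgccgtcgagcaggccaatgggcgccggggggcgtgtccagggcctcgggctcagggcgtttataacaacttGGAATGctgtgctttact
EDN2: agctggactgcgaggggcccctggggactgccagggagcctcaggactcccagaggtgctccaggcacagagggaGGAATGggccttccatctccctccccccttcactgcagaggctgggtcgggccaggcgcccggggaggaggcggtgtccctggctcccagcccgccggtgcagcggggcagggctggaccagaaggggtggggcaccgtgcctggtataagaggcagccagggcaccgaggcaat

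The letters were sought on both strands from 250 bases before to 50 after the start of every gene with an entry. They were present in 7 of the 16 YAP/TEAD targets with a RefSeq promoter (43.8%), of which PTPN14 and FOXF2 were not called. They were present in 10.9% of the 10633 tested genes with one, in 21.9% (7 of 32) of lysosome and autophagy genes, and in 14% of all 27305 RefSeq promoters. Genes called lower held them in 12% of promoters, genes called higher in 10.2%, and genes not called in 10.9%. Among genes called lower by over 2-fold the share was 15.4% (6 of 39). The promoters of AMOTL2, IGFBP3 and CCDC80, all of which fell, hold no match in this window, and that of TRPM8, which rose, holds 1. A match is a run of letters and was not tested as a binding site.

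The remaining targets differed widely in the size of their response. CYR61, a matrix protein related to CTGF, fell from 672, 696 and 686 CPM to 283, 292 and 270.4 CPM (−1.28 ± 0.04), and IGFBP3, a carrier of insulin-like growth factors, from 47.9, 62.2 and 54.3 CPM to 21.7, 18.9 and 19.2 CPM (−1.46 ± 0.08). AMOTL2, which binds YAP at cell junctions, fell by 1.19 on the log2 scale, and the Hippo kinase LATS2 from 126, 124 and 125 CPM to 64.7, 69.8 and 71.1 CPM (−0.87 ± 0.05). Both encode brakes on YAP.

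CRIM1, a membrane-bound regulator of BMPs, fell from 1021 ± 36.8 to 506 ± 26.7 CPM (SD; −1.01 ± 0.04). CCDC80 (−0.89 ± 0.04), FJX1 (−0.84 ± 0.06) and the cytokine TGFB2 (−0.78 ± 0.07) fell by similar amounts. AXL, a receptor tyrosine kinase, fell by 0.49, and ARHGEF17, a guanine nucleotide exchange factor, also fell (−0.43 ± 0.06). The smallest called falls were in DOCK5 (−0.27 ± 0.05), ASAP1 (−0.25 ± 0.04) and GADD45A (−0.22 ± 0.05). DOCK5 was not called when the spread was estimated from all 12 libraries (−0.25, adjusted p = 0.173).

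One target rose. NT5E, the cell-surface enzyme that makes adenosine from AMP, was at 90.3, 76.2 and 80.4 CPM under DMSO and 114, 126 and 121 CPM under the inhibitor, with every treated library above every control (0.55 ± 0.05, adjusted p = 3.99e-12). PTPN14 (−0.0025 ± 0.04), MYOF (−0.05 ± 0.03), RBMS3 (0.03 ± 0.07) and FOXF2 (0.13 ± 0.14) were not called, and their groups overlapped. F3, which encodes tissue factor, was barely present, at 1.65, 1.48 and 0.919 CPM against 1.59, 0.688 and 1.198 CPM, so its change could not be resolved (−0.19 ± 0.34).

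**Figure D1:**
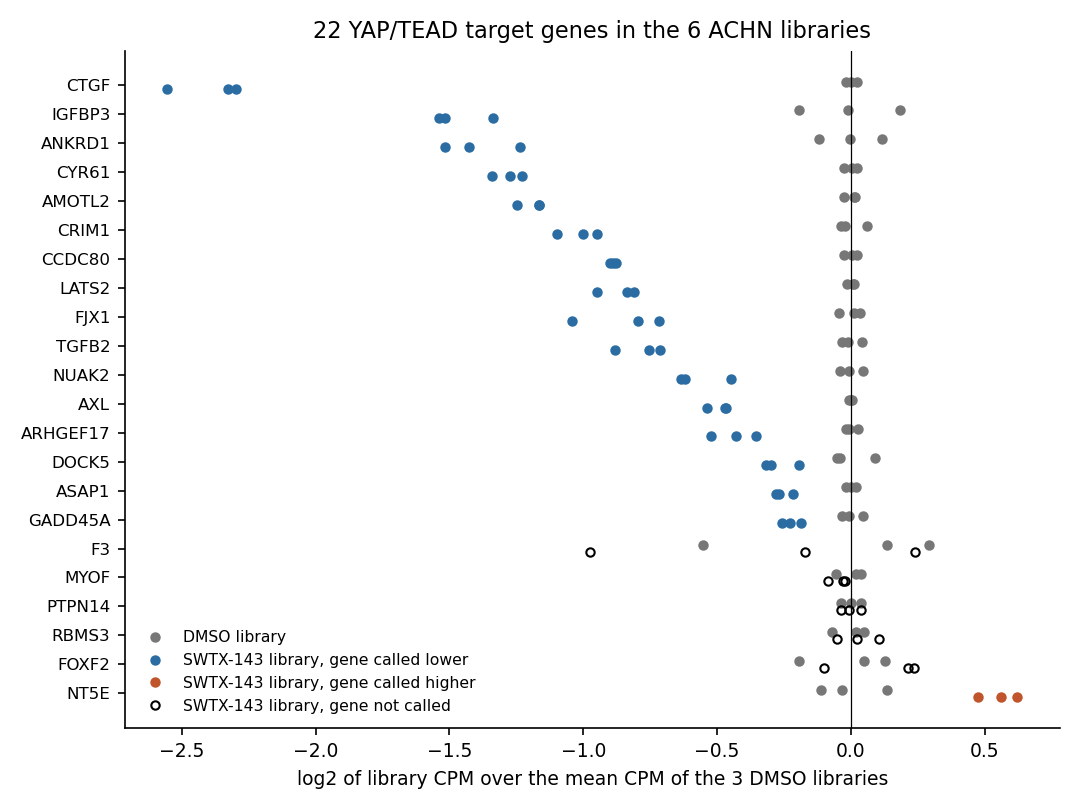
Each row is 1 of the 22 YAP/TEAD target genes, and each point is 1 ACHN library, placed by the log2 of its CPM over the mean CPM of the 3 DMSO libraries (grey). Treated libraries of the 16 genes called lower (blue) lie left of every DMSO library, those of NT5E (red) lie right, and open points mark the 5 genes that were not called.

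The genes of the drug's own target family changed by small amounts. TEAD1 fell from 214, 211 and 215 CPM to 144, 154 and 151 CPM (−0.51 ± 0.04, adjusted p = 4.83e-15), and TEAD4 from 86.1, 92.6 and 88.3 CPM to 75.9, 75.7 and 73.99 CPM (−0.24 ± 0.05). TEAD2 (0.07 ± 0.10) and TEAD3 (−0.09 ± 0.09) were not called. YAP1 rose from 120.2 ± 5.16 to 138 ± 4.21 CPM (0.20 ± 0.04). WWTR1, which encodes TAZ, fell by 0.15, a call that ended without DMSO library 1 (adjusted p = 0.0724). VGLL4, a competitor of YAP for TEAD, was not called (0.03 ± 0.06). It may share reads with ATG7, which overlaps it on the opposite strand, since the strand setting is not given.

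The Hippo pathway list, which shares AMOTL2 and LATS2 with the targets, had 12 lower and 2 higher of 38 tested. AJUBA, a LIM-domain protein that restrains LATS kinases, fell from 173, 157 and 159.9 CPM to 85.1, 81.7 and 79.3 CPM (−0.99 ± 0.05). NF2 RNA was present in all 6 libraries, at 118, 118 and 118 CPM under DMSO and 102, 102 and 93.5 CPM under the inhibitor, and its fall was −0.25 ± 0.05. RNA level does not show whether the transcript encodes working merlin. TNIK, a kinase of the MAP4K family, rose (0.35 ± 0.08), while TAOK3 (0.21 ± 0.07) was not called without DMSO library 2 (adjusted p = 0.112), which leaves 1 member higher.

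Among 43 tested genes of a wider YAP-associated list, 23 fell and 4 rose, with a median of −0.20. FSTL1, a secreted follistatin relative, fell from 145 ± 2.604 to 86.6 ± 2.201 CPM (−0.74 ± 0.05), and the focal-adhesion protein TNS1 rose from 39.3 ± 3.204 to 59.1 ± 1.48 CPM (0.59 ± 0.06). The count of 4 higher members fell to 2 without DMSO library 2 or SWTX-143 library 3, and to 1 without DMSO library 3 or SWTX-143 library 2. ITGB2 and EREG, 2 of the 4, were among the calls lost.

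Across the transcriptome the response was broad and shallow. In ACHN 2401 of 13483 tested genes changed (17.8%), 1264 lower and 1137 higher, and the median size of a called log2 fold change was 0.258. Only 50 genes fell and 24 rose by over 2-fold, and 64 genes (54 lower, 10 higher) passed a test against a 1.5-fold change. The split of calls depended on scaling. Falls made up 52.6% of calls under TMM, 41.5% under upper-quartile scaling (1028 lower, 1450 higher) and 38.9% with library size alone (977 lower, 1537 higher). Relative to TMM these scalings moved the median of all genes by no more than 0.029. Calls were more frequent at high levels, from 5.48% of genes at 1 to 5 CPM to 35.3% of those over 100 CPM.

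**Figure D2:**
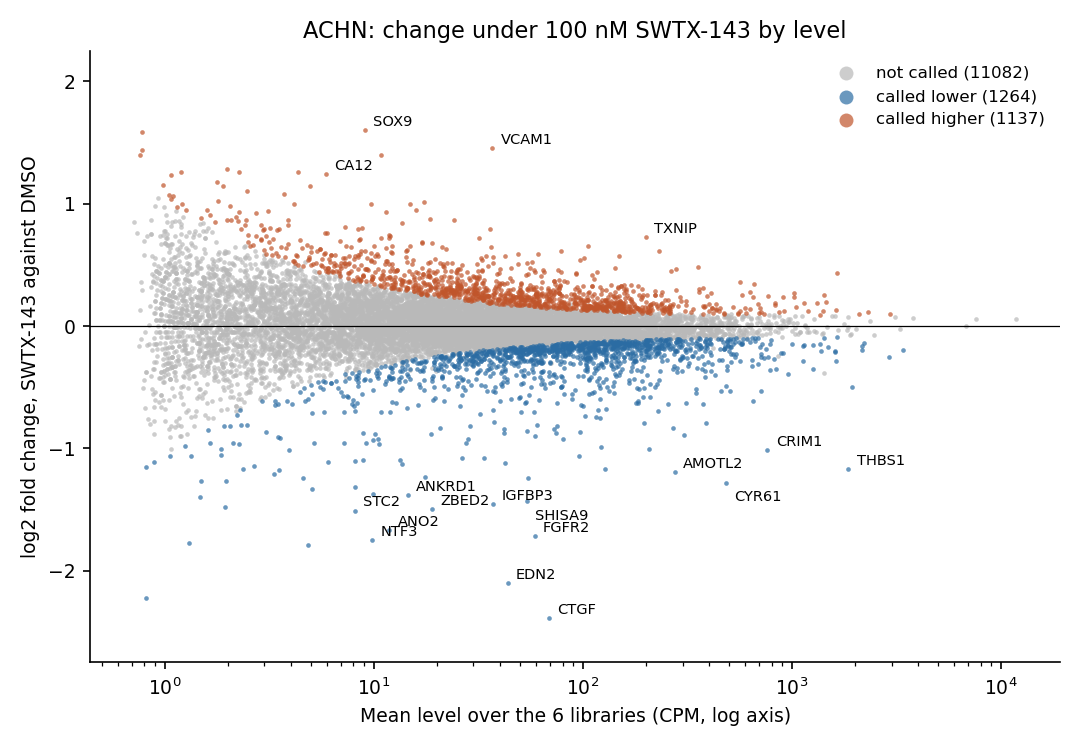
Each point is 1 tested gene, with its mean CPM over the 6 libraries on a log axis and its log2 fold change under SWTX-143. The 1264 genes called lower (blue) reach further from 0 than the 1137 called higher (red), and CTGF has the lowest value among the labelled genes.

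The libraries were even in depth. Totals were 10113810 to 11206457 counts, TMM factors 0.9895 to 1.013, and the 10 most abundant genes held 4.69% to 5.02% of counts. The biological coefficient of variation was 3.23%. Transcripts over 12000 bases had a median change of −0.071, with 60 lower and 19 higher of 233 genes, and their part in the results for long genes was not tested.

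Kidney markers were present in part. The nephric transcription factors PAX8 (416 ± 10.6 CPM under DMSO) and PAX2 (86.1 ± 0.892 CPM) were present. Of 24 proximal tubule markers 11 could be tested, among them HAVCR1, the kidney injury marker (202 ± 3.200 CPM), while LRP2, SLC22A6, SLC22A8 and MME had no count in these libraries. The tubule genes UMOD and AQP2 had no count, as did the leukocyte genes PTPRC and CD3E and the fibroblast collagen COL3A1. The summed level of 10 endothelial markers was 2.758 to 3.689 CPM under DMSO and 3.317 to 3.451 CPM under the inhibitor, and that of 13 immune markers was 51.35 to 55.54 CPM under DMSO and 66.53 to 75.63 CPM under the inhibitor. The immune sum came mostly from CD68, a lysosomal protein, which rose from 46.7 ± 1.81 to 62.8 ± 4.51 CPM (0.42 ± 0.06). Its part in the results below was not tested.

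Among called genes whose mean reached 5 CPM and that passed the naming rule given below, the largest falls outside the YAP lists were in NTF3 and FGFR2. NTF3, the neurotrophin-3 gene, fell from 15.2, 14.7 and 15.4 CPM to 4.69, 4.42 and 4.33 CPM (−1.75 ± 0.13). FGFR2, a receptor for fibroblast growth factors, stood at 89.1, 90.4 and 91.5 CPM under DMSO and 25.6, 28.97 and 27.8 CPM under SWTX-143, a fall of −1.72 ± 0.06 (adjusted p = 3.18e-29). SHISA9, a membrane protein known from glutamate receptor complexes, fell from 77.6, 79.2 and 78.9 CPM to 27.9, 31.9 and 27.6 CPM (−1.43 ± 0.06). In all 3 genes the groups were separated by more than the spread within either.

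The secreted stanniocalcin STC2 fell from 11.8, 11.9 and 12.2 CPM to 3.19, 5.402 and 4.15 CPM (−1.51 ± 0.15), the BMP antagonist NOG from 14.3 ± 0.449 to 5.54 ± 1.21 CPM (−1.37 ± 0.13), and the vasodilator peptide ADM from 11.7 ± 1.35 to 4.65 ± 0.806 CPM (−1.32 ± 0.15). The calcium-activated chloride channel ANO2 fell (−1.67 ± 0.13), and so did the zinc-finger protein ZBED2 (−1.499 ± 0.10), the RNA-binding protein RBM24 (−1.33 ± 0.19) and the translation factor CTIF (−1.24 ± 0.06). CTGF, EDN2, IGFBP3, ANKRD1 and CYR61, described above, complete the 15.

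The largest rise under the same rule was in SOX9, a transcription factor of nephron development and tubule repair. Its levels were 4.66, 4.54 and 4.23 CPM under DMSO and 13.5, 13.5 and 13.8 CPM under the inhibitor (1.60 ± 0.14, adjusted p = 5.24e-14). VCAM1, an adhesion molecule induced by NF-kB, rose from 17.7, 19.4 and 21.8 CPM to 51.1, 54.4 and 56.6 CPM (1.46 ± 0.08). The 3 treated libraries were more than 2 times the highest control for both genes. CA12, a membrane carbonic anhydrase of kidney tumours, rose from 3.51 ± 0.353 to 8.32 ± 0.618 CPM (1.24 ± 0.16), and the pseudokinase TRIB1 from 9.98 ± 0.797 to 19.96 ± 2.19 CPM (1.00 ± 0.11).

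Further rises included 2 channels, the cold receptor TRPM8 (1.01 ± 0.10) and the tubular potassium channel KCNJ16 (1.00 ± 0.14), and the death ligand TNFSF10, also named TRAIL (10.9 ± 0.814 to 20.98 ± 1.75 CPM, 0.95 ± 0.10). IRAK2, a kinase of interleukin-1 receptor signalling, rose by 0.88, and NR1H4, the bile acid receptor, by 0.80. The others among the 15 largest were METTL7A (0.93), PNRC1 (0.87), GPRC5C (0.84), LONRF2 (0.81), YPEL2 (0.79) and SNX29 (0.79). All 30 of these genes had treated and control libraries that did not overlap, which the rule for naming them required.

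**Figure D3:**
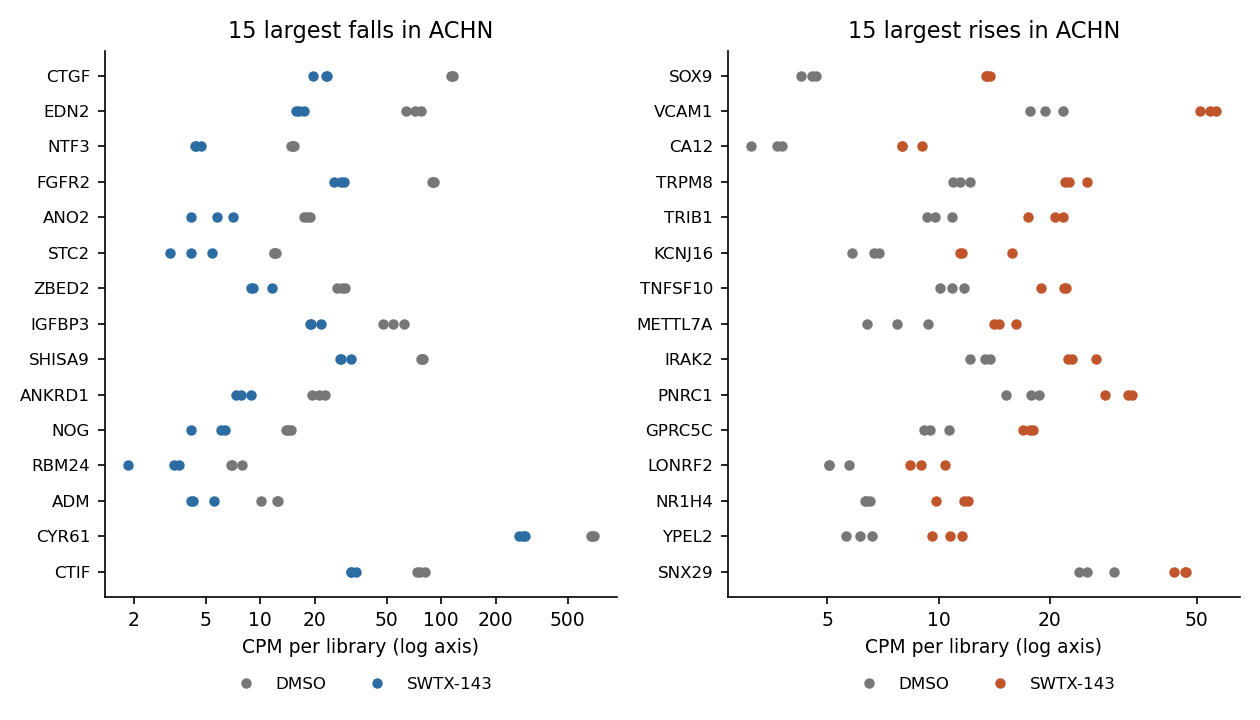
Each row is 1 gene and each point 1 ACHN library, placed by its CPM on a log axis, with DMSO libraries in grey. The 15 largest falls are at left (treated libraries in blue) and the 15 largest rises at right (red), ranked by log2 fold change from CTGF (−2.39) and SOX9 (1.60).

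The list of nucleolar genes for ribosome assembly fell as a group, by small amounts. Of 40 tested, 24 were lower (60%) and 1 higher (2.5%), with a median of −0.19. The lower members include SRM and ODC1, enzymes of polyamine synthesis that are not nucleolar assembly factors. The counts of this list and of those below stand beside 9.37% called lower and 8.43% called higher among all tested genes. Of the 2496 tested genes over 100 CPM, 559 were called lower and 323 higher. No list was compared with genes of like level. UTP20, which processes ribosomal RNA, fell from 210.3, 218 and 220.3 CPM to 173, 171 and 171 CPM (−0.33 ± 0.04), and the RNA helicase DDX21 from 508, 486 and 478 CPM to 394, 420.3 and 398 CPM (−0.28 ± 0.04). UBTF, a factor for RNA polymerase I, rose (0.19 ± 0.04). The E-box letters CACGTG are recognised by MYC family factors and read the same on both strands. They occurred in 13 of the 34 promoters of the nucleolar list in RefSeq (38.2%). The share was 21.9% (7 of 32) for lysosome and autophagy genes and 10.3% for promoters of all tested genes.

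MYC itself was not called (−0.06 ± 0.04), a gene added here outside the naming rule after its value was seen. Cytosolic ribosomal protein genes had 4 higher of 53 and a median of 0.0071. None was called lower by edgeR or DESeq2, and 1 was lower at an unadjusted p under 0.05. Without DMSO library 1, 1 was called lower. Under upper-quartile scaling or library size alone 7 were higher. RPS24 had the smallest p among them (0.18 ± 0.04), and reads of such genes can also match their processed pseudogenes. Transfer RNA synthetases had 6 lower and 1 higher of 20, which became 3 lower without DMSO library 1, DMSO library 3 or SWTX-143 library 3.

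Amino acid transporters fell in part. SLC7A5, the large neutral amino acid transporter, fell from 358, 342 and 345 CPM to 199.8, 204 and 180.1 CPM (−0.84 ± 0.04, adjusted p = 3.52e-23), and its partner chain SLC3A2 from 82.2 ± 1.45 to 62.2 ± 1.84 CPM (−0.40 ± 0.05). Transporters in the list had 7 lower (36.8%) and 3 higher (15.8%) of 19, and without DMSO library 2 only 1 was higher. The list of nucleotide, one-carbon and serine synthesis had 9 lower (27.3%) and 2 higher (6.06%) of 33. Its lower members include the polyamine enzymes SRM, ODC1 and SMS, and SRM and ODC1 are also counted in the nucleolar list. The falls were led by PRPS1, which makes the ribose phosphate donor (−0.54 ± 0.05), and the mitochondrial folate enzyme MTHFD2 (−0.32 ± 0.04). Without DMSO library 2, DMSO library 3 or SWTX-143 library 3, only 1 member was higher.

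Targets of ATF4, the factor of the amino acid stress response, had 11 lower (39.3%) and 3 higher (10.7%) of 28, against 9.37% and 8.43% of all tested genes. SESN2, a sestrin that restrains mTORC1, rose against that direction, from 56.2, 50.2 and 56.1 CPM to 75.7, 73.7 and 74.5 CPM (0.46 ± 0.06), as did DDIT4, another restraint (0.39 ± 0.06). The endoplasmic reticulum chaperone HSPA5 fell from 779 ± 12.4 to 653 ± 21.9 CPM (−0.25 ± 0.03), and HERPUD1 fell with it (−0.26 ± 0.05). The unfolded protein response list had 6 lower of 22. Its 1 higher member, ERN1, was not called in any fit that left out a library.

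The replication genes of S phase did not move as a group. Of 53 tested, 3 were called lower and 1 higher, with a median of −0.035, shares below the 9.37% and 8.43% of all tested genes. The origin licensing factor CDC6 was at 140.3, 140.2 and 137 CPM against 125, 130.5 and 123 CPM (−0.14 ± 0.04), and RRM2 (−0.12 ± 0.04) and MCM10 (−0.18 ± 0.06) were called by a narrow margin. None of the 3 was called by DESeq2, by the fit of all 12 libraries or without SWTX-143 library 3, and the lower count was 1 without DMSO library 1, DMSO library 3 or SWTX-143 library 1. The higher count was 0 without DMSO library 2, DMSO library 3 or SWTX-143 library 3, and 2 without SWTX-143 library 1. The balance turned with scaling, since upper-quartile scaling called 1 lower against 3 higher, and library size alone 0 lower against 3 higher.

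Mitotic genes had 10 lower of 53 (18.9%, against 9.37% of all tested genes) and a median of −0.058. Of all tested genes over 100 CPM, 559 of 2496 were called lower, and the mitotic share was not compared with genes of like level. ANLN, a scaffold of the cleavage furrow, fell from 819, 795 and 795 CPM to 656, 679 and 674 CPM (−0.26 ± 0.03), and falls were called in CDC20, which activates the anaphase-promoting complex (−0.27 ± 0.04), and the mitotic kinesin KIF23 (−0.26 ± 0.04). ANLN overlaps KIAA0895, which was not called (−0.13 ± 0.05). The count fell to 6 without DMSO library 3, to 5 without SWTX-143 library 1 and to 5 in the fit of all 12 libraries. No member was called higher by edgeR under TMM or by DESeq2, and 1 was higher at an unadjusted p under 0.05. Under upper-quartile scaling or library size alone 1 was called higher. In bulk RNA, fewer cells in a phase and less RNA per cell cannot be told apart.

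Among G1 cyclins and CDK inhibitors, 2 were called lower and 2 higher of 18 (11.1% each). These shares are near the 9.37% and 8.43% of all tested genes. The cyclin CCND3 fell from 94.2, 90.95 and 91.7 CPM to 65.6, 68.3 and 62.2 CPM (−0.50 ± 0.05). The CDK inhibitor CDKN1B fell (−0.22 ± 0.05), and CCNG2, a cyclin linked to quiescence, rose from 11.8, 13.02 and 14.3 CPM to 19.5, 19.6 and 23.9 CPM (0.68 ± 0.10). CCND1 was not called (−0.04 ± 0.04), again a gene looked up after the fact.

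FOXO target genes divided, with 7 higher (35%) and 5 lower (25%) of 20. TXNIP, which binds thioredoxin and limits glucose uptake, rose from 142.6, 150.2 and 161 CPM to 256, 236 and 260.1 CPM (0.73 ± 0.04, adjusted p = 3.39e-19). The insulin receptor substrate IRS2 fell from 61.1, 53.8 and 58.9 CPM to 26.6, 27.99 and 25.5 CPM (−1.12 ± 0.07), and GADD45B (−0.96 ± 0.08) and CITED2 (−0.58 ± 0.04) fell. The higher count was 4 without DMSO library 2 or SWTX-143 library 2.

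Receptor tyrosine kinases and their ligands showed many calls in both directions, 15 lower (42.9%) and 6 higher (17.1%) of 35. After FGFR2, the ephrin receptor EPHA2 fell from 224, 224 and 216 CPM to 152, 141 and 139.7 CPM (−0.61 ± 0.04) and the epidermal growth factor receptor EGFR from 513, 548 and 568 CPM to 389, 374 and 362 CPM (−0.53 ± 0.04). MET, the hepatocyte growth factor receptor, rose from 1266, 1207 and 1221 CPM to 1400.0, 1426 and 1385 CPM (0.19 ± 0.03), and the ligand PDGFC rose (0.26 ± 0.04). The treated and control libraries of these 4 genes did not overlap, as for 2300 of the 2401 called genes and 31.9% of all tested genes. DESeq2 called 3 members higher in place of 6.

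Genes that answer ERK signalling went both ways, 4 lower (20%) and 4 higher (20%) of 20. The cytokine LIF (−0.46 ± 0.04) and the AP-1 subunit FOSL1 (−0.40 ± 0.04) fell, and EGR1 (0.37 ± 0.07) and SPRED2 (0.26 ± 0.06) rose. DUSP1, a phosphatase that shuts off MAP kinases, fell from 91.7, 97.3 and 99.5 CPM to 53.7, 54.5 and 49.6 CPM (−0.87 ± 0.05). In the TGF-beta, activin and BMP list 6 were lower (19.4%) and 5 higher (16.1%) of 31, or 3 higher without DMSO library 3. FSTL3, which binds activins, fell (−0.60 ± 0.05), and the receptor TGFBR2 rose (0.23 ± 0.05).

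Called interferon-stimulated genes were all higher. Of 34 tested, 15 rose, with a median of 0.24. None was called lower by edgeR or DESeq2 or had an unadjusted p under 0.05 in that direction. PARP14, which modifies proteins with ADP-ribose, rose from 97.7, 95.3 and 102 CPM to 125, 123 and 123 CPM (0.33 ± 0.05), and SAMD9 (0.29 ± 0.06) and SAMD9L (0.35 ± 0.07), both antiviral proteins, rose with it. DESeq2 called 9 members higher. The leukocyte genes PTPRC and CD3E had no count in any of these libraries. MHC class I presentation had 4 higher (23.5%) and 1 lower (5.88%) of 17, and none lower without SWTX-143 library 3. The smallest p was that of B2M, the invariant light chain (598 ± 5.23 to 704 ± 18.9 CPM, 0.24 ± 0.03).

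NF-kB output and cytokine genes had 7 higher (30.4%) and 2 lower (8.7%) of 23, with a median of 0.14. BIRC3, an inhibitor of apoptosis induced by NF-kB, rose from 66.2, 63.7 and 57.5 CPM to 91.2, 93.4 and 102 CPM (0.61 ± 0.06). SOD2, the mitochondrial superoxide dismutase, rose (0.34 ± 0.04), but it may share reads with ACAT2 and WTAP, which overlap it. IL6 was low and fell from 2.79 ± 0.479 to 1.16 ± 0.489 CPM (−1.27 ± 0.29). In the apoptosis list 6 were higher (23.1%) and 4 lower (15.4%) of 26. Falls were called in the survival genes BCL2 (−0.27 ± 0.06) and BCL2L1 (−0.35 ± 0.04), the second of which overlaps ABALON, and a rise in the caspase inhibitor XIAP (0.31 ± 0.06).

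Lysosome and autophagy genes had 11 higher of 42 (26.2%) and a median of 0.083. The autophagy receptor SQSTM1 rose from 569.6, 563 and 577 CPM to 699, 699.8 and 669.5 CPM (0.28 ± 0.03), and it overlaps MGAT4B. The lysosomal proteases CTSD (0.25 ± 0.04) and CTSB (0.25 ± 0.04) rose by like amounts. None was called lower by edgeR or DESeq2 or had an unadjusted p under 0.05 in that direction, and with library size alone 18 were higher.

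Matrix genes changed in both directions. The adhesive glycoprotein THBS1 fell from 2764, 2467 and 2503 CPM to 1173, 1226 and 1048 CPM (−1.17 ± 0.06, adjusted p = 2.82e-07), and SPARC, which binds collagen, from 459, 462 and 451 CPM to 296, 296 and 291 CPM (−0.63 ± 0.04). THBS1 and COL12A1 also stand in the wider YAP-associated list. Collagens and their crosslinking enzymes had 10 lower (32.3%) and 2 higher (6.45%) of 31, with a median of 0.0035. The higher count was 1 with DESeq2 and without DMSO library 1, 2 or 3 or SWTX-143 library 1. The basement membrane collagen COL4A1 fell from 598, 587 and 605 CPM to 418, 419.5 and 401 CPM (−0.53 ± 0.04), and COL12A1, a collagen of fibril surfaces, from 54.3 ± 2.04 to 29.6 ± 1.74 CPM (−0.88 ± 0.07).

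Integrins, laminins and matrix glycoproteins, the list that holds THBS1 and SPARC, had 14 higher (35.9%) and 5 lower (12.8%) of 39. ITGB1, the common integrin beta chain, rose from 1077, 1072 and 1060.0 CPM to 1193, 1243 and 1227 CPM (0.19 ± 0.03), and fibronectin FN1 from 832 ± 50.4 to 978 ± 48.05 CPM (0.23 ± 0.04). The count of 5 lower members became 3 without DMSO library 2, DMSO library 3, SWTX-143 library 1 or SWTX-143 library 3. HSPG2, 1 of the 5 and a long transcript that overlaps another gene, was not called in the fit of all 12 libraries (adjusted p = 0.32).

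Cytoskeletal and junction genes also went both ways. Of 42 actin and SRF genes 12 were lower (28.6%) and 4 higher (9.52%), including falls of the formin DIAPH3 (−0.55 ± 0.05) and the filamin FLNC (−0.37 ± 0.04). Without DMSO library 1 only 1 was higher, and under either other scaling 9 were. Of 8 caveolae coat genes 4 fell, among them SDPR (−0.63 ± 0.05) and PTRF (−0.35 ± 0.03). None of the 8 was called higher by edgeR or DESeq2 or had an unadjusted p under 0.05 in that direction. The desmosomal plakophilin PKP2 fell from 158, 148 and 148 CPM to 90.6, 90.8 and 88.5 CPM (−0.75 ± 0.05), and the tight junction protein CLDN2, typical of proximal tubule, rose from 122, 124 and 114 CPM to 178, 187 and 171 CPM (0.57 ± 0.04). Keratins KRT80 (−0.51 ± 0.04) and KRT18 (−0.28 ± 0.03) fell and KRT19 rose (0.34 ± 0.04), with KRT18 lying next to and overlapping KRT8.

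Kidney lists held calls in both directions, and their shares are given against 9.37% lower and 8.43% higher of all tested genes. Kidney tumour genes had 6 higher (33.3%) and 2 lower (11.1%) of 18, with a median of 0.091. VHL and VIM among the higher, and SDHB among the lower, were not called without DMSO library 2. The kidney lineage transcription factors had 3 higher (18.8%) and 1 lower (6.25%) of 16, with a median of 0.021. POU3F3, 1 of the 3 higher, was not called with DESeq2 or without DMSO library 1, SWTX-143 library 1 or SWTX-143 library 3. The lower member kept its call without DMSO library 2 and lost it when any other library was left out, with DESeq2 and under either other scaling. LHX1, a regulator of nephron formation, rose from 13.01, 14.5 and 16.1 CPM to 23.2, 22.1 and 24.6 CPM (0.68 ± 0.09), and the tubule cadherin CDH16 from 15.2 ± 0.4004 to 21.9 ± 0.966 CPM (0.53 ± 0.09). The brush border peptidase DPP4 rose from 51.7, 50.5 and 46.1 CPM to 61.9, 60.2 and 64.7 CPM (0.33 ± 0.06). Proximal tubule markers had 4 higher (36.4%) and 1 lower (9.09%) of 11 tested. Their summed level was 612.3 to 617.5 CPM under DMSO and 661.5 to 671 CPM under the inhibitor, and 5 of the 24 had no count. That sum includes VCAM1, 1 of the 4 higher and also in the NF-kB list, which went from 19.6 to 54.05 CPM. The lower member, HAVCR1, was not called without SWTX-143 library 1 or 2 or under either other scaling. PAX8 (0.03 ± 0.04) and PAX2 (0.07 ± 0.05) were not called. Of 18 markers of distal tubule, collecting duct and podocyte 4 could be tested and 1 was lower, SYNPO, an actin-binding protein (−0.32 ± 0.05). The summed level of the 18 was 170.3 to 185.1 CPM under DMSO and 152.4 to 156.9 CPM under the inhibitor, and 6 of them had no count. HMGA2, a chromatin protein listed with mesenchymal factors, rose from 191, 183 and 173 CPM to 266, 285 and 287 CPM (0.62 ± 0.04).

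Metabolic lists held calls in both directions, given against 9.37% lower and 8.43% higher of all tested genes. Of tested genes over 100 CPM, 559 of 2496 were called lower, and these lists were not compared with genes of like level. In the glycolysis and hypoxia list 9 were lower (26.5%) and 4 higher (11.8%) of 34. EPAS1, the hypoxia factor HIF-2 alpha that drives many kidney cancers, fell from 316, 307 and 306 CPM to 199, 205 and 194 CPM (−0.64 ± 0.04, adjusted p = 1.88e-19). The glucose transporter SLC2A1 (−0.49 ± 0.05) and hexokinase HK2 (−0.51 ± 0.06) fell. The higher count was 2 without DMSO library 2 or SWTX-143 library 3. Cholesterol genes had 7 lower (23.3%) and 2 higher (6.67%) of 30. The higher count was 1 without DMSO library 1, SWTX-143 library 1 or SWTX-143 library 3, and 4 with library size alone. Genes of fatty acid synthesis and oxidation had 6 lower (21.4%) and 3 higher (10.7%) of 28, with a median of 0.00036. The counts became 3 lower and 1 higher without DMSO library 3 or SWTX-143 library 1. Under library size alone 3 were lower and 5 higher. Fatty acid synthase FASN fell from 550.1 ± 13.96 to 429.7 ± 22.9 CPM (−0.36 ± 0.04). Oxidative phosphorylation genes had 2 lower of 41, a share below the background. The count was 1 without DMSO library 2 or SWTX-143 library 1 and 4 without SWTX-143 library 2. None was called higher by edgeR or DESeq2 or had an unadjusted p under 0.05 in that direction with all 6 libraries, and 1 was called higher without SWTX-143 library 3.

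**Figure D4:**
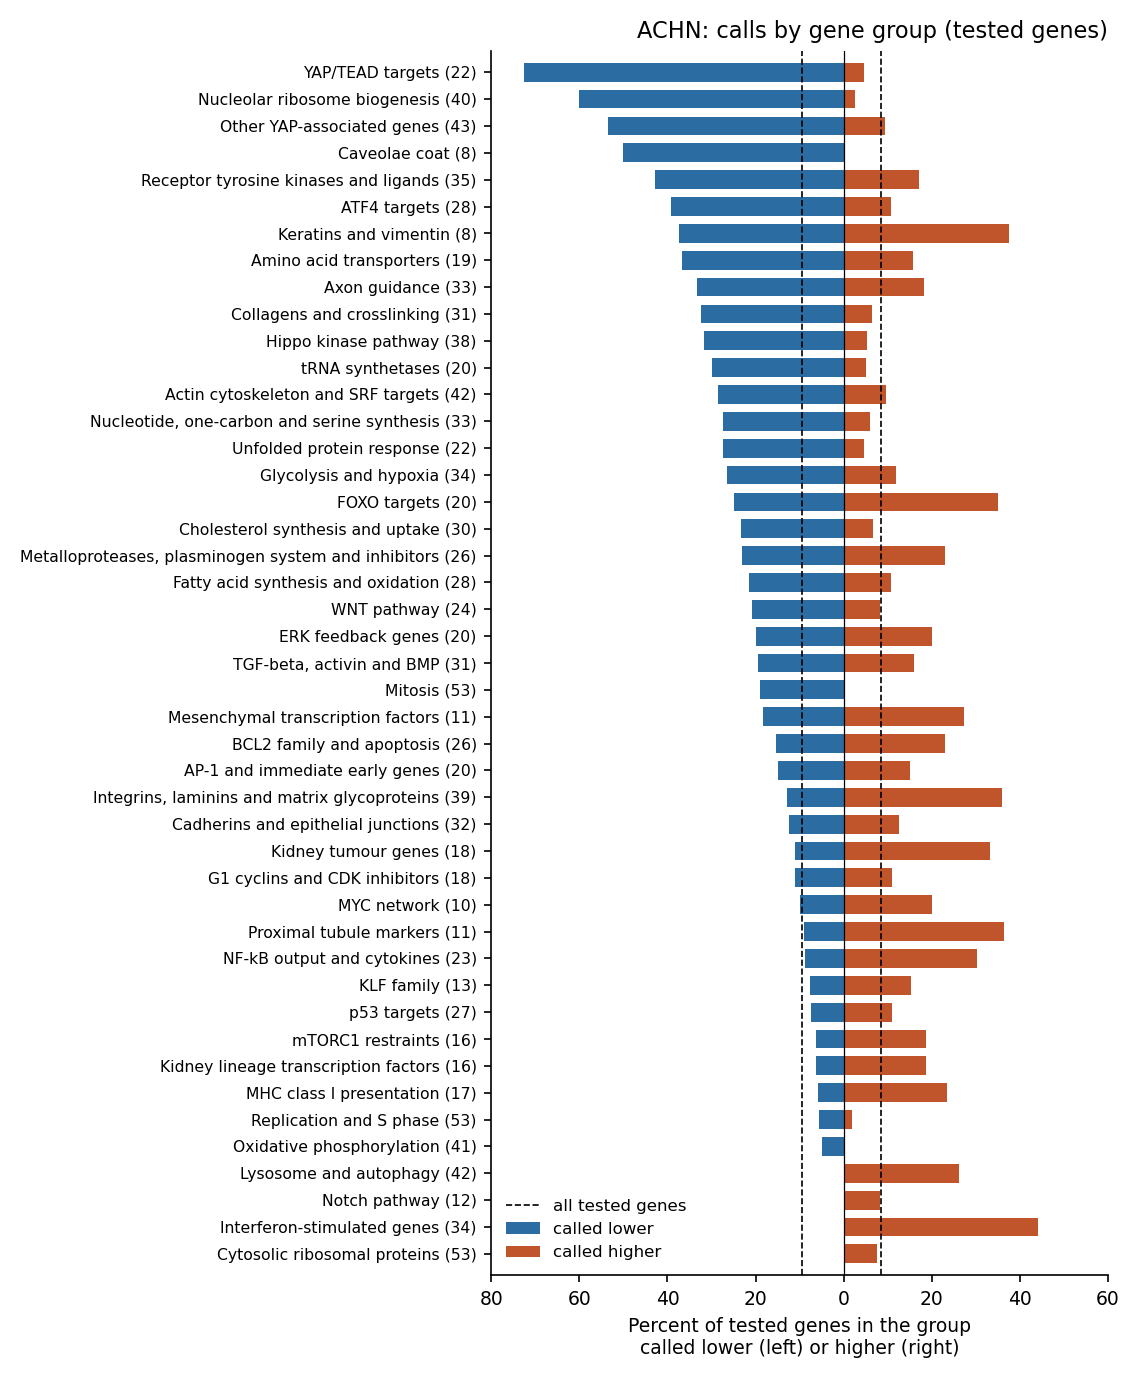
Bars give the percent of each gene group's tested members called lower (left, blue) and called higher (right, red) in ACHN, for the groups with 8 or more tested genes, and dashed lines give 9.37% and 8.43%, the shares of all tested genes. YAP/TEAD targets reach 72.7% lower and interferon-stimulated genes 44.1% higher, while oxidative phosphorylation and replication genes lie inside both lines.

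The guidance, WNT, protease, Notch and KLF lists are given against 9.37% lower and 8.43% higher of all tested genes. The semaphorin SEMA5A fell from 18.3 ± 1.52 to 8.55 ± 0.361 CPM (−1.09 ± 0.11) and SEMA4D rose (0.43 ± 0.05). Their guidance list had 11 lower (33.3%) and 6 higher (18.2%) of 33. The Frizzled receptor FZD2 (−0.29 ± 0.06) and the ligand WNT5B (−0.35 ± 0.07) fell, in a list with 5 lower (20.8%) and 2 higher (8.33%) of 24. DESeq2 called neither of the 2 higher members. The secreted protease ADAMTS1 fell from 203 ± 3.98 to 150.2 ± 4.76 CPM (−0.43 ± 0.04), in a list with 6 lower and 6 higher of 26 (23.1% each). HES1, a Notch target, rose (0.53 ± 0.11) and was the only call among 12 tested Notch genes (8.33%). Of the 12, 3 were lower at an unadjusted p under 0.05. KLF5, an epithelial transcription factor, fell from 31.5 ± 0.733 to 21.3 ± 1.44 CPM (−0.57 ± 0.08), in a list with 1 lower (7.69%) and 2 higher (15.4%) of 13.

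The response of ACHN was then tested against that of H226 as the difference of the 2 log2 fold changes, ACHN minus H226, in 1 fit of all 12 libraries. Of 14664 genes tested, 2286 differed (15.6%), with the ACHN change lower for 863 (5.89%) and higher for 1423 (9.7%). Upper-quartile scaling gave 1159 and 1045, and without H226 DMSO library 2 or library 3 the second count was 832 or 932. In H226 itself 21.6% of genes were called lower and 19% higher. Of 1197 genes lower in ACHN and tested in both lines, 731 were lower in H226 too (61.1%), which is 26.1% of the 2797 lower there. Of 993 higher in ACHN, 536 were also higher in H226 (54%), or 24.1% of 2227. Opposite calls were made for 67 genes lower and 55 higher in ACHN.

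Among the YAP/TEAD targets the lines differed for 9 of 22 genes, against 15.6% of all genes. The difference, given here with its SE, was not called for CTGF (0.15 ± 0.11), CYR61 (0.14 ± 0.06), LATS2 (−0.09 ± 0.08) or IGFBP3 (−0.30 ± 0.11). The ACHN change was the lower for AMOTL2 (−0.36 ± 0.06), CRIM1 (−0.56 ± 0.05), CCDC80 (−0.31 ± 0.05), ASAP1 (−0.30 ± 0.06) and AXL (−0.18 ± 0.06). It was the higher for F3 (1.49 ± 0.34), NT5E (0.77 ± 0.08), ANKRD1 (0.71 ± 0.20) and GADD45A (0.39 ± 0.08). F3 was barely present in ACHN, at 1.35 CPM under DMSO and 1.16 CPM under the inhibitor, and its own change there could not be resolved. The call for AXL ended without SWTX-143 library 3 of ACHN (adjusted p = 0.0642), and that for ANKRD1 without DMSO library 2 of H226 (adjusted p = 0.0575). NT5E rose in ACHN and fell in H226 (−0.21 ± 0.06).

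Replication genes had the largest share of called differences among the lists with 8 or more genes. The difference was called, with the ACHN change the higher, for 48 of 53 genes, against 9.7% of all genes. In H226 50 of the 53 were called lower, against 21.6% of all genes there, and in ACHN 3. CDC6 differed by 0.89 ± 0.07 (adjusted p = 9e-17) and MCM10 by 1.21 ± 0.12. The nucleolar list fell in both lines, with 37 of 40 lower in H226, and for 33 of its genes the ACHN change was the higher, as for DDX21 (0.54 ± 0.06). SKP2, which directs the CDK inhibitor CDKN1B to degradation, was at 44.2, 41.7 and 45.4 CPM against 44.8, 42.9 and 43.95 CPM in ACHN, with no change called (0.0035 ± 0.06). In H226 it fell from 439.9 to 157 CPM, and the difference was 1.495 ± 0.07 (adjusted p = 1.03e-29).

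**Figure D5:**
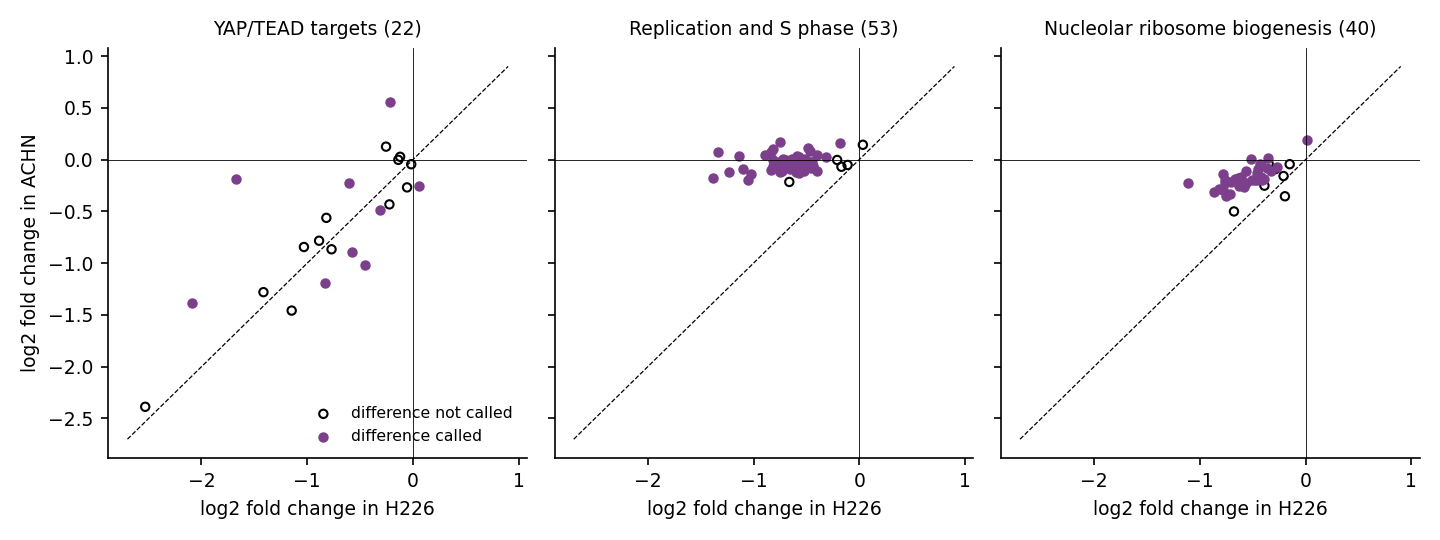
Each point is 1 gene of the named list, placed by its log2 fold change in H226 (horizontal) and in ACHN (vertical), purple where the difference between the lines was called, and the dashed line marks equal change. The YAP/TEAD targets scatter along the line, with 9 of 22 in purple, while 48 of 53 replication genes are purple above the line, near 0 in ACHN.

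Among called differences of genes reaching 5 CPM in both lines and passing the naming rule, EDN2 had the most negative difference, −2.37 ± 0.19 (adjusted p = 3.1e-16). In H226 it was low, at 5.03 CPM under DMSO and 5.999 CPM under the inhibitor, and was not called. FGFR2 fell by far more in ACHN (−1.45 ± 0.13). CRISPLD2 (−1.62 ± 0.17) and the TNF receptor relative TNFRSF19 (−1.37 ± 0.15) fell in ACHN and rose in H226. ITGB8 (−1.41 ± 0.11), not called in ACHN, rose in H226, and NDRG4 (−1.38 ± 0.13) rose less in ACHN, where its own call ended without SWTX-143 library 3 (adjusted p = 0.0725). On the other side, the homeobox gene MSX1 (1.73 ± 0.18), the helicase DDX20 (1.67 ± 0.10) and the activin subunit INHBA (1.66 ± 0.08) fell in H226 and were not called in ACHN. C1orf198 (1.59 ± 0.08) fell less in ACHN, where its call ended without DMSO library 3 (adjusted p = 0.0577). B3GNT7 (1.58 ± 0.18) rose in ACHN and fell in H226. NTF3, SHISA9, VCAM1, KCNJ16 and NR1H4 had no count in H226, so for these the difference could not be measured.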

How the data were processed

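RNA was sequenced as paired 100-base reads, and the authors deposited raw read counts per gene symbol for each library. FastQC, cutadapt, STAR 2.6.1d and build hg19 (GRCh37) are named per the submitters' processing notes. For the counting program, the strand setting and the annotation: not given in the sources used here. Overlapping genes and pseudogene copies can therefore share reads.

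The counts were fitted with edgeR 4.0.16 (R 4.3.3, limma 3.58.1) by the quasi-likelihood test, with TMM scaling, filterByExpr, robust dispersions and Benjamini-Hochberg adjustment over all tested genes at 0.05. The ACHN fit used only its 6 libraries, with treatment as the sole term. The difference between lines came from 1 fit of all 12 libraries. The tests were tried on simulated data with known changes. Alternatives were DESeq2 1.42.0, other scalings and filters, a replicate block, a test against 1.5-fold, and leaving out each library.

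The text names the 15 largest rises and falls whose mean reached 5 CPM and whose groups did not overlap. It also names the 22 YAP/TEAD targets, the TEAD factors and coactivators, NF2 and the 6 largest differences between lines in each direction. Clone-type, LOC, LINC, antisense and pseudogene symbols were passed over in ranking rises, falls and differences. From each of the other lists came up to 3 called members per direction, those with the smallest p. A few genes that this rule names are not reported here. The 51 lists and this choice of comparison were made with earlier results of these data known. RefSeq promoters (GRCh38.p14) were matched to 10633 of 13483 tested genes. Libraries of 1 group differed by more than sampling noise (chi-square per degree of freedom 1.36 to 2.88).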

Additional observations from a re-analysis of the deposited data

Results flagged for a closer look

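Results are listed here because the drug effect, tested as the difference in log2 fold change, ACHN minus H226, was called in the fit of all 12 libraries (edgeR's quasi-likelihood test, Benjamini-Hochberg adjustment). Among the 30 genes with the largest changes in ACHN, the difference was negative for EDN2 (−2.37 ± 0.19), NOG (−2.05 ± 0.43), FGFR2 (−1.45 ± 0.13), CTIF (−0.86 ± 0.08) and ZBED2 (−0.84 ± 0.12). It was positive for ANKRD1 (0.71 ± 0.20), TRIB1 (0.66 ± 0.14), ADM (0.52 ± 0.15) and SNX29 (0.47 ± 0.11). NOG stood at only 0.621 and 1.02 CPM in H226, in DMSO and under the inhibitor. The call for ADM ended without DMSO library 1 of ACHN (adjusted p = 0.0525) or SWTX-143 library 1 of ACHN (adjusted p = 0.192), and that for ANKRD1 without DMSO library 2 of H226 (adjusted p = 0.0575).

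Among the YAP/TEAD targets the difference was negative for CRIM1 (−0.56 ± 0.05), AMOTL2 (−0.36 ± 0.06), CCDC80 (−0.31 ± 0.05), ASAP1 (−0.30 ± 0.06) and AXL (−0.18 ± 0.06). It was positive for F3 (1.49 ± 0.34), NT5E (0.77 ± 0.08) and GADD45A (0.39 ± 0.08). F3 stood at only 1.35 and 1.16 CPM in ACHN, in DMSO and under the inhibitor, and was not called there. The AXL call ended without SWTX-143 library 3 of ACHN (adjusted p = 0.0642).

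The remaining entries are the largest called differences of genes reaching 5 CPM in both lines. They were negative for CRISPLD2 (−1.62 ± 0.17), ITGB8 (−1.41 ± 0.11), NDRG4 (−1.38 ± 0.13) and TNFRSF19 (−1.37 ± 0.15). They were positive for MSX1 (1.73 ± 0.18), DDX20 (1.67 ± 0.10), INHBA (1.66 ± 0.08), C1orf198 (1.59 ± 0.08), B3GNT7 (1.58 ± 0.18) and SKP2 (1.495 ± 0.07). With 3 libraries per group no single library was tested for standing apart from its group.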

How the results depend on the processing

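The count of 2401 changed ACHN genes was 1492 with DESeq2 and 64 in the test against a 1.5-fold change, and 1841 to 2174 when 1 library was left out. Higher calls numbered 638 with DESeq2 and 10 against 1.5-fold, and lower calls 54 against 1.5-fold. The causes were not tested, except that a 1.5-fold test asks for more than most called changes reach. Differences from H226 with the ACHN effect higher numbered 832 to 1411 when 1 library was left out, with 832 without H226 DMSO library 2 and 932 without H226 DMSO library 3. Same-numbered libraries did not deviate together (correlations −0.126, −0.158 and −0.059, with −0.0484 to 0.161 for the other pairs). Deviations were centred within groups of 3 libraries, so these values cannot show whether same-numbered libraries share a culture or batch. The replicate block gave 2146 changed genes. Of 234 named genes that were called, 186 kept their call in every planned setting other than the 1.5-fold test, and 190 in every fit that left out 1 library. No named result changed direction while called. The median standard error of 0.077 (log2) and the low levels of many genes limit what could be called.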

Other observations

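p53 targets were called at about the share of all genes, with 3 higher (11.1%, against 8.43%) and 2 lower (7.41%, against 9.37%) of 27 tested, and 6 were higher with library size alone. TP53INP1, which promotes cell death and autophagy, rose from 27.1 ± 0.962 to 35.6 ± 2.15 CPM (SD, n = 3 per group; 0.40 ± 0.07), and the antiproliferative gene BTG2 rose by 0.25. Among genes of the MYC network, MXD4, a partner of MAX that opposes MYC, rose from 14.2 ± 1.28 to 19.8 ± 2.77 CPM (0.48 ± 0.10). DDIT4L, a restraint on mTORC1, fell from 4.53 ± 0.5998 to 2.404 ± 0.247 CPM (−0.91 ± 0.21), opposite to SESN2 and DDIT4 in the same list. Adjusted p-values from edgeR's quasi-likelihood test were 5.09e-05 for TP53INP1, 0.00168 for BTG2, 0.00039 for MXD4 and 0.000817 for DDIT4L.

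The mesothelial markers LRRN4 and UPK3B went in opposite directions in the 2 lines. Of 6 mesothelial markers tested in ACHN 3 were lower (50%), against 9.37% of all tested genes, and none was called higher. The summed level of 18 mesothelial markers was 253.2 to 255.8 CPM in ACHN under DMSO and 212.2 to 220.6 CPM under the inhibitor, with 4 of them without a count. Most of it came from LRRN4, which fell from 187 ± 0.461 to 157 ± 4.42 CPM in ACHN (−0.26 ± 0.04). In H226 the same gene went from 239.6 to 316 CPM (0.40 ± 0.04), and the difference was −0.65 ± 0.06 (adjusted p = 4.42e-15). UPK3B was low in ACHN and fell from 6.70 to 4.69 CPM (−0.51 ± 0.17). It was called higher in H226, by 0.18, and the difference was −0.69 ± 0.15. BNC1, at 2.61 and 1.48 CPM, fell in ACHN (−0.81 ± 0.26) and was not called in H226. The ACHN calls for UPK3B and BNC1 ended without DMSO library 3.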
